A study of Mus musculus with 11 samples.

Results

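The genes described here encode the SR proteins and the heterogeneous nuclear ribonucleoproteins (hnRNPs), the main families of general splicing regulators. They were chosen by symbol as the protein-coding Srsf, Tra2a, Tra2b and Hnrnp genes together with Ptbp1, Ptbp2, Ptbp3, Pcbp1 and Pcbp2, leaving out Hnrnpa2b1 and Hnrnpc. This gave 36 genes of the 53947 gene rows measured, 13 SR or Tra2 genes and 23 hnRNP, PTB or PCBP genes. After a filter on low counts 35 of them were tested among 14133 genes. The gene kept out was Srsf12, an SR-like factor, which had 0.178 to 0.537 CPM (counts scaled to a common library size) in M3KD libraries, 0.180 to 0.407 CPM in M14KD libraries and 0.134 to 0.399 CPM in scramble libraries.

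The cells were aTC1-6, a glucagon-producing line derived from a mouse pancreatic alpha cell tumour. All were transfected while being plated, at a stated 70% confluency, and collected 72 h later for stranded mRNA sequencing. There were 4 libraries with knockdown of Mettl3 (M3KD), 4 with knockdown of Mettl14 (M14KD) and 3 with a scramble control (SCR, called scramble here) that went through the same transfection. Mettl3 is the catalytic subunit, and Mettl14 the RNA-binding partner, of the complex that writes N6-methyladenosine (m6A) on mRNA. All libraries came from 1 cell line, and nothing in the labels shows whether replicates are independent cultures; the p-values therefore rest on a spread between libraries that may be technical.

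SR proteins carry RNA-binding domains and a tail rich in serine and arginine, bind exonic enhancers and generally favour inclusion of the exon they bind. Many hnRNPs bind exonic or intronic silencers and act against inclusion, though both families can do either according to where they bind. Several SR, Tra2 and hnRNP genes limit their own mRNA by splicing in a poison exon, a conserved exon whose stop codon sends the transcript to nonsense-mediated decay. m6A can change how some hnRNPs reach their sites on RNA, and the writer complex prefers an adenosine in the context GGACT.

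Because the knocked-down complex acts on GGACT, the coding sequences of the members were searched for it on the coding strand, and 6 called genes (Srsf6, Hnrnpm, Hnrnph1, Srsf7, Tra2a and Srsf4) are described as examples chosen after their values were seen. Each line below gives the last GGACT of the coding sequence in the APPRIS principal transcript of GENCODE M21 (build GRCm38) with 12 bases on each side, and capitals mark GGACT.
Srsf6, chromosome 2, coding bases 117 to 145: cgtggagttcgaGGACTcccgggatgccg
Hnrnpm, chromosome 17, coding bases 883 to 911: caacttccccatGGACTtggtggtattgg
Hnrnph1, chromosome 11, coding bases 423 to 451: aacattgccggtGGACTtccaggggagga
The Srsf6 and Hnrnpm sites are the only coding GGACT of those transcripts, and Hnrnph1 has 2. As further examples, Tra2b and Hnrnpdl have 1 coding GGACT each and Srsf9 has 3. Members not listed here hold it too, such as Hnrnpul1 with 3 and Hnrnph2 with 2. The coding sequences of Srsf7, Tra2a and Srsf4 hold none, although each has 1 GGACT in its 3' untranslated region. Over coding sequence and 3' untranslated region together the median was 0.466 GGACT per kb for the 36 genes and 1.03 per kb for 12210 protein-coding genes tested. No coding GGACT was found in 14 of the 36 genes (38.9%), against 23.7% of the protein-coding genes tested. Of these 14 genes 8 were among the 13 SR and Tra2 genes. The members' coding sequences were shorter, with a median of 1128 bases (798 for SR and Tra2 genes) against 1392 for the genes tested. The part of length in these shares was not tested. A match is a string of letters and does not show that the site is methylated.

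Srsf7 and Srsf6 were the only members called in both knockdowns with and without scramble replicate 2, so their promoters are shown next, as the 250 bases before the start in RefSeq (build GRCm38.p6), with motif matches in capitals.
Srsf7, chr17:80207306-80207555, minus strand: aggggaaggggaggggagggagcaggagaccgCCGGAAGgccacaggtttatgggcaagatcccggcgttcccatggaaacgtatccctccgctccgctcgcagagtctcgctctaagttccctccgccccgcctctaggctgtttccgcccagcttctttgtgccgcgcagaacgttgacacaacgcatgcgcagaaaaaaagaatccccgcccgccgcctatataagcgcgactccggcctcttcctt
Srsf6, chr2:162931258-162931507, plus strand: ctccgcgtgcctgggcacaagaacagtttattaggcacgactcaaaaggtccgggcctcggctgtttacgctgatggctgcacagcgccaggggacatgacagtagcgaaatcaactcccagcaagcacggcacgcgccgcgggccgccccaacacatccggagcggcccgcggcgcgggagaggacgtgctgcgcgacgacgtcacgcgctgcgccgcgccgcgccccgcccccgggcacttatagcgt
The G and C content was 61.6% in the Srsf7 window and 68.4% in the Srsf6 window. Both strands were searched for CCAAT, the E-box CACGTG, the ETS word CCGGAAG and the TATA word TATAAA, none of which overlapped another in these windows. The Srsf7 window held the ETS word and the Srsf6 window held none of these letters. The bases just after the Srsf7 window were found near the start of its GENCODE principal transcript. Those after the Srsf6 window were not found there, so that window may not be the promoter of the transcript used above. Of the 33 genes with a promoter in the table, 8 (24.2%) held the ETS word and 16 (48.5%) held CCAAT, against 16.0% and 41.6% of 10233 tested genes. The E-box was found in 5 (15.2%), against 9.87% of tested genes, and TATA in 3 (9.09%), against 7.72%.

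Library totals ran from 19576632 to 22406527 estimated counts. Here and below a CPM is given with its SD over libraries (n = 4 for each knockdown and 3 for scramble), a log2 fold change with its SE, and a gene counts as called when its adjusted p (Benjamini-Hochberg over all genes tested) was under 0.05. Mettl3 averaged 5.33 ± 0.448 CPM in M3KD and 14.9 ± 1.02 CPM in scramble, a log2 fold change of -1.48 ± 0.08 (edgeR adjusted p = 6.86e-11). Mettl14 averaged 14.7 ± 0.72 CPM in M14KD and 25.2 ± 1.7 CPM in scramble, a log2 fold change of -0.78 ± 0.06 (edgeR adjusted p = 8.78e-09). In M3KD Mettl14 was higher, at 29.3 ± 1.01 CPM, by 0.22 ± 0.06 on the log2 scale (edgeR adjusted p = 0.00494). The 14 alpha cell markers listed were all above the filter, and summed to 44522 to 46428 CPM in M3KD libraries, 49770 to 52100 CPM in M14KD libraries and 48508, 40341 and 48738 CPM in scramble libraries. CPM is a share of each library's counts, so fewer cells with a transcript and less of it per cell cannot be told apart.

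The library that departed most from the rest was scramble replicate 2. It was the lowest of the 11 libraries for 22 of the 35 tested members (62.9%), while it was lowest for 22.6% of all genes tested. It was highest for 3 members (8.57%), against 20.9% of all genes. Against the mean of the other scramble libraries its level was 61.0% for Hnrnph3, 66.6% for Hnrnpa1, 67.0% for Hnrnph2, 68.8% for Srsf5 and 72.1% for Hnrnpul2, while Pcbp1 stood at 120% and Ptbp1 at 111%. The same library held 150 CPM summed over 14 lung and blood transcripts, against 2.70 to 7.17 CPM in the other 10, and 31.4 CPM over 8 mesenchymal, endothelial and immune markers, against 7.42 to 13.5 CPM. The sum over 11 beta and delta cell markers was 73.9 CPM there and 50.4 to 57.6 CPM elsewhere, with Pdx1 and Ppy at 0 in every library. The part of these transcripts in the values below was not tested, so each member's comparisons with scramble are given with and without this library. Among the knockdown libraries, M14KD replicate 2 was the highest of the 11 for 14 of the 35 tested members, against 8.94% of all genes. It was lowest for 2 members, against 9.18% of all genes.

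**Figure D1:**
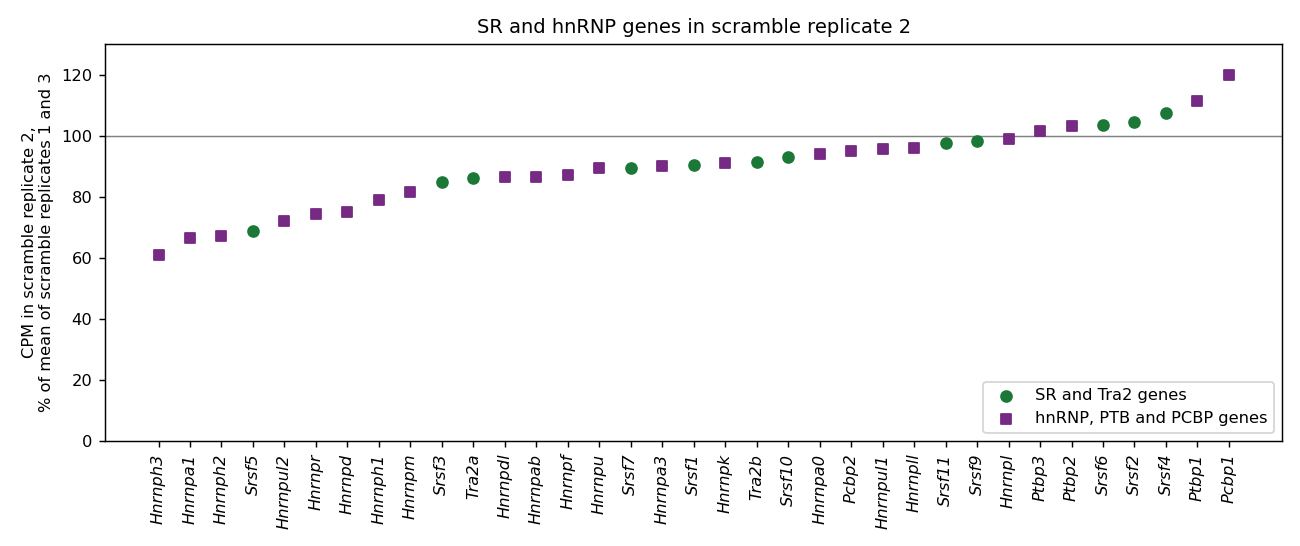
Level of each tested SR and hnRNP gene in scramble replicate 2, as a percentage of the mean CPM of scramble replicates 1 and 3 (vertical axis), for each gene (horizontal axis, ordered by that percentage); circles are SR and Tra2 genes, squares are hnRNP, PTB and PCBP genes, and the line marks 100%. The values run between 61.0% for Hnrnph3 and 120% for Pcbp1, with most genes below the line.

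The members spanned a wide range of levels. Per kilobase of the principal transcript, averaged over all 11 libraries, Hnrnpa3 was highest at 529 CPM per kb, followed by Pcbp2 at 358, Hnrnpf at 355, Hnrnpa1 at 335 and Hnrnpk at 320 CPM per kb. Among SR and Tra2 genes Srsf2 led at 184 CPM per kb, with Srsf5 at 165, Tra2a at 136 and Srsf3 at 134 CPM per kb. Ptbp1, the polypyrimidine tract-binding protein of most tissues, stood at 169 CPM per kb, against 11.7 CPM per kb for Ptbp2, its neuronal counterpart, and 65.7 CPM per kb for Ptbp3. Hnrnpr was lowest of the tested members at 8.75 CPM per kb, but its annotated transcript of 21452 bases may be longer than the one these cells use. Without division by length, Hnrnpu was highest, at 1023 ± 8.82 CPM in M3KD, 1049 ± 17.98 CPM in M14KD and 961 ± 61.0 CPM in scramble libraries. Hnrnpa1 and Hnrnpa3 have processed pseudogenes, so reads shared out by estimation make their counts less certain.

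In M3KD some SR and Tra2 transcripts were higher than in scramble, between 1.07-fold for Srsf1 and 1.19-fold for Srsf7, and most hnRNP transcripts did not pass the test. By edgeR's quasi-likelihood test, 7 of 35 members were higher (Srsf1, Srsf6, Srsf7, Tra2a, Tra2b, Hnrnpdl and Hnrnpm) and 2 were lower (Srsf4 and Ptbp2), while 26 did not pass. DESeq2 gave 9 higher and 0 lower (15.1% and 14.3% of the 12750 genes with a DESeq2 adjusted p). Below, shares of all genes by DESeq2 are also over genes with such a p, 12208 in M14KD and 11937 between the knockdowns. The edgeR test called 15.5% of all genes higher and 15.8% lower in this comparison, so the members' share of higher calls lies near the background and their 5.71% lower below it. The median log2 fold change was 0.07 over the 35 members and -0.00 over all genes tested. The SR and Tra2 genes gave 5 higher and 1 lower of 12 with a median of 0.10, and the hnRNP, PTB and PCBP genes gave 2 higher and 1 lower of 23 with a median of 0.02. Without scramble replicate 2 the members higher were 4 (Srsf5, Srsf6, Srsf7 and Tra2b) and those lower were 5 (Hnrnpa0, Hnrnpa3, Hnrnph3, Hnrnpul2 and Pcbp2), with a median of 0.01, where 15.3% of all genes were called higher and 15.1% lower. Leaving out M3KD replicate 1, 2, 3 or 4 gave 3 or 4 higher, leaving out M14KD replicate 3 gave 4, and leaving out scramble replicate 1 gave 11. The lower count was 0 without M3KD replicate 1 or 4. It was 1 without M3KD replicate 2, M14KD replicate 1 or 4, or scramble replicate 1 or 3. The share of all genes called with any library but scramble replicate 2 left out was not counted, here or below. Those counts therefore have no background to be read against.

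In M14KD the higher members were again SR, Tra2 and hnRNP transcripts, between 1.08-fold for Srsf6 and 1.21-fold for Hnrnph1. Of 35 members 8 were higher than in scramble (Srsf1, Srsf6, Srsf7, Tra2a, Hnrnpdl, Hnrnph1, Hnrnpm and Hnrnpu), 22.9% where the test called 10.1% of all genes higher. No member was lower by edgeR (0, where 10.8% of all genes were called lower) or by DESeq2, which called 9 higher (10% of all genes higher and 10.2% lower by DESeq2), and 16 members had an unadjusted p under 0.05 in either direction by edgeR. The share of all genes under that unadjusted p was not counted, here or in the comparisons and lists below. The median log2 fold change was 0.10 over the members and 0.00 over all genes. Leaving out scramble replicate 2 took the members' median to 0.04. Without scramble replicate 2 there were again 8 higher, with Srsf5 in and Srsf1 out, and Hnrnpa0 was lower (1 member was also lower without scramble replicate 1), where 9.34% and 10.1% of all genes were called higher and lower. The higher count was 13 without scramble replicate 1 and 6 to 11 without any other library. Both comparisons use the same 3 scramble libraries. The share of all genes called in both was not counted, so the joint numbers that follow have no background to be read against. Called higher in both were 6 members (Srsf1, Srsf6, Srsf7, Tra2a, Hnrnpdl and Hnrnpm), and 3 without scramble replicate 2; the number was 2 without M3KD replicate 2, 3 or 4, 3 without M3KD replicate 1 or M14KD replicate 2, 4 without M14KD replicate 3 and 10 without scramble replicate 1.

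**Figure D2:**
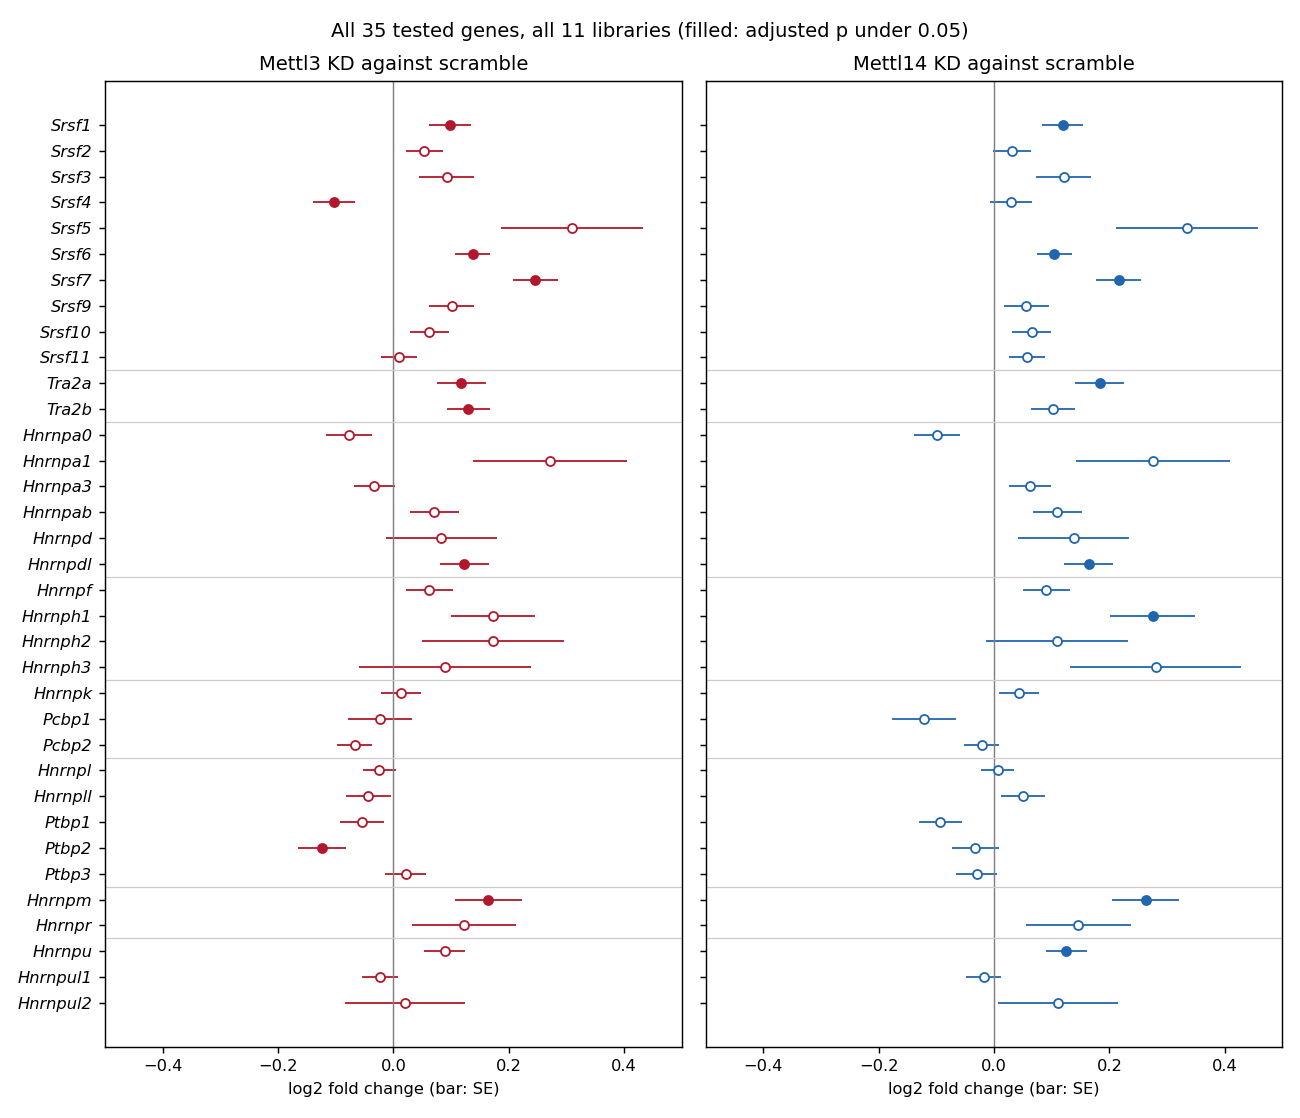
Log2 fold change of each tested gene (rows, grouped by protein class) in M3KD against scramble (left) and in M14KD against scramble (right), from all 11 libraries; bars are SE and filled points have an edgeR adjusted p under 0.05. Filled points are 9 on the left and 8 on the right, and Srsf7 lies at 0.25 and 0.22.

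**Figure D3:**
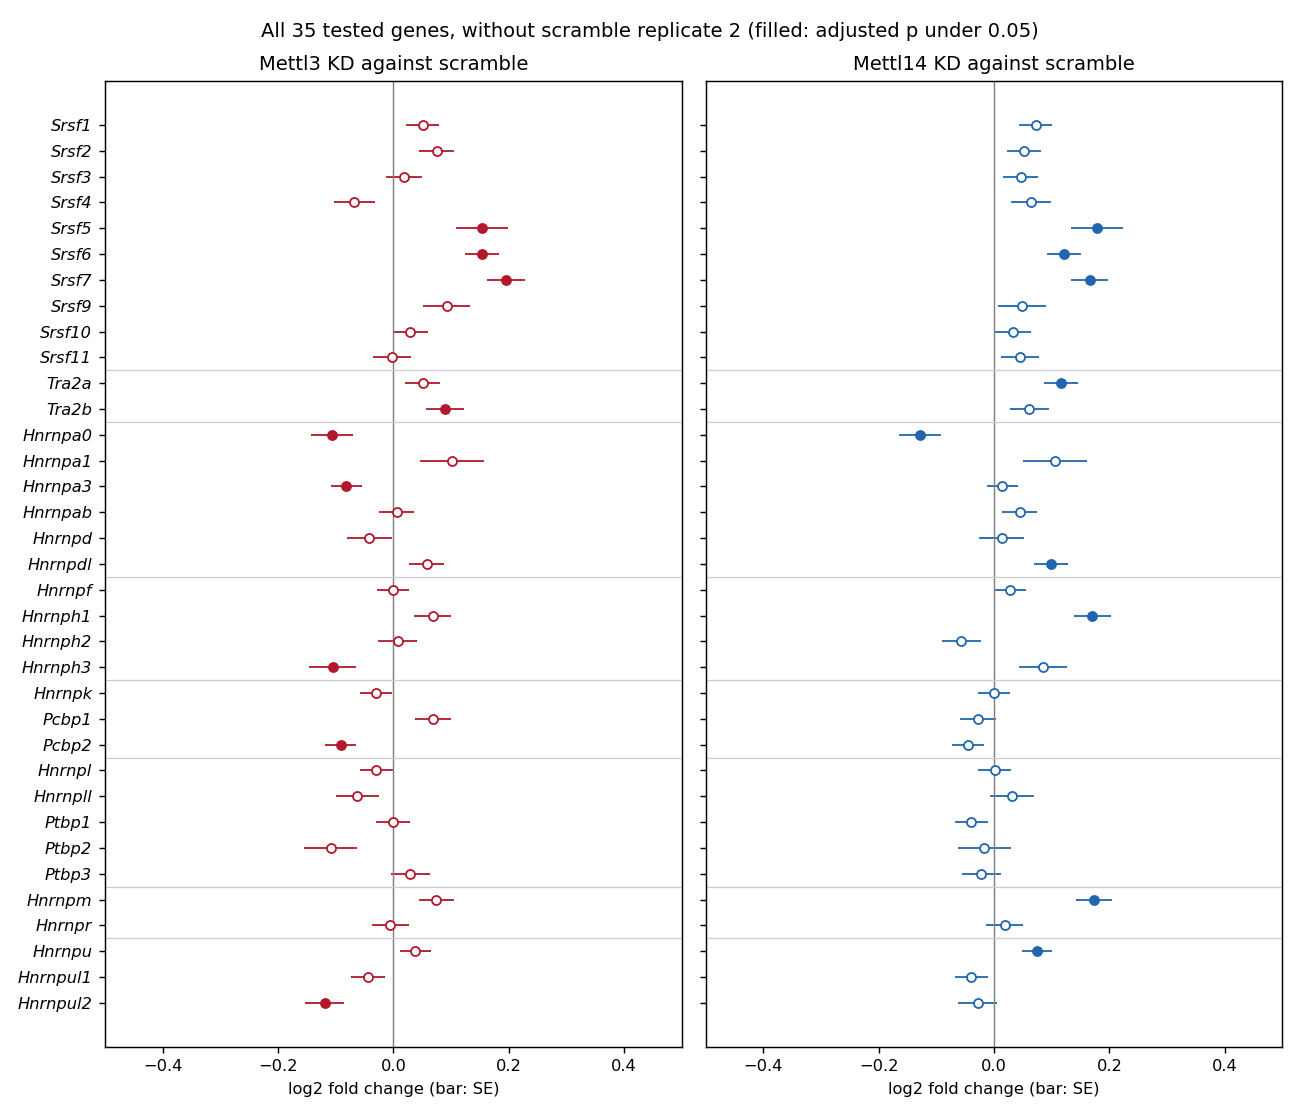
The same log2 fold changes with scramble replicate 2 left out; bars are SE and filled points have an edgeR adjusted p under 0.05. Srsf6 and Srsf7 stay filled on both sides, while the widest bars of the fit with 11 libraries, those of Hnrnph3, Hnrnpa1 and Srsf5, are shorter.

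Among the SR proteins Srsf7, a regulator with a zinc knuckle that also takes part in mRNA export and 3' end choice, had the smallest adjusted p of the members in both comparisons with scramble. It had 205, 213, 214 and 203 CPM in M3KD libraries, 210.4, 206, 199 and 203 CPM in M14KD libraries, and 184, 163 and 180.4 CPM in scramble libraries. Every knockdown library lay above every scramble library. Its log2 fold change was 0.25 ± 0.04 in M3KD (edgeR adjusted p = 6.38e-05) and 0.22 ± 0.04 in M14KD (edgeR adjusted p = 0.000438), and it passed without any single library, at 0.20 to 0.28 and 0.17 to 0.25. The lower ends, 0.20 and 0.17, were those without scramble replicate 2.

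Srsf6, a regulator of exon inclusion whose overexpression is oncogenic in mouse skin, followed the same order of groups. It stood at 265, 261, 258 and 260 CPM in M3KD libraries, 255, 261, 251 and 254 CPM in M14KD libraries, and 234, 243 and 235 CPM in scramble libraries. Neither knockdown overlapped scramble, and here scramble replicate 2 was the highest of its group. Its log2 fold change was 0.14 ± 0.03 in M3KD (edgeR adjusted p = 0.00137), which passed without any single library, and 0.10 ± 0.03 in M14KD (edgeR adjusted p = 0.016), which did not pass without M14KD replicate 2; without scramble replicate 2 the values were 0.15 and 0.12.

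Srsf1, among the first SR proteins described and an oncogene when overexpressed, had 422, 424, 417 and 411 CPM in M3KD libraries, 428, 419, 424 and 427 CPM in M14KD libraries, and 414, 364 and 394 CPM in scramble libraries. M14KD libraries lay above all scramble libraries, while M3KD replicate 4 fell below scramble replicate 1. In log2 terms the change was 0.10 ± 0.04 in M3KD (edgeR adjusted p = 0.0422) and 0.12 ± 0.04 in M14KD (edgeR adjusted p = 0.0219). The M3KD call ended without scramble replicate 2 or 3, any of the 4 M3KD replicates, or M14KD replicate 2 or 3; the M14KD call ended without scramble replicate 2 alone. Without that library the log2 fold changes were 0.05 and 0.07.

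Srsf4 was the SR gene that moved the other way in M3KD. It had 106, 103, 108 and 104 CPM in M3KD libraries, 112, 119.6, 118 and 112 CPM in M14KD libraries, and 108.4, 118 and 112 CPM in scramble libraries. M3KD libraries lay below all others, and the M14KD and scramble libraries overlapped. That gave a log2 fold change of -0.10 ± 0.04 in M3KD (edgeR adjusted p = 0.0384) and 0.03 ± 0.04 in M14KD (edgeR adjusted p = 0.618). The M3KD call ended without scramble replicate 2 or 3, M3KD replicate 1, 2 or 4, or M14KD replicate 1 or 4, at -0.13 to -0.07 over all libraries left out; without scramble replicate 2 the values were -0.07 in M3KD and 0.06 in M14KD.

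Srsf5, an insulin-responsive SR protein, had the largest fold changes of the family but failed the test with all libraries. It had 268, 275, 269 and 274 CPM in M3KD libraries, 293, 289.6, 252 and 270.4 CPM in M14KD libraries, and 245, 168 and 244 CPM in scramble libraries. Both knockdowns lay above all scramble libraries, and scramble replicate 2 was far below its group. The log2 fold change was 0.31 ± 0.12 in M3KD (edgeR adjusted p = 0.0923) and 0.34 ± 0.12 in M14KD (edgeR adjusted p = 0.0928). Without scramble replicate 2 it was 0.15 ± 0.04 (edgeR adjusted p = 0.0157) and 0.18 ± 0.04 (edgeR adjusted p = 0.00952). DESeq2 called both with all 11 libraries.

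The remaining SR genes did not pass in either knockdown in the main edgeR fit, with all 11 libraries, no covariate and the filter on low counts. With no filter Srsf3 was called higher in M14KD, and with the replicate number as a block Srsf9 was called higher in M3KD. Without scramble replicate 1, Srsf3 and Srsf10 were called higher in both knockdowns and Srsf9 in M3KD, and Srsf9 was also called higher in M3KD without M3KD replicate 4. Srsf9 had a log2 fold change of 0.10 ± 0.04 in M3KD (edgeR adjusted p = 0.0578) and 0.06 ± 0.04 in M14KD. Srsf3, the smallest SR protein, gave 0.09 ± 0.05 in M3KD and 0.12 ± 0.05 in M14KD. Srsf2, which prefers C- and G-rich exonic sites, gave 0.05 ± 0.03 and 0.03 ± 0.03, Srsf10, active in its dephosphorylated form as a repressor, gave 0.06 ± 0.03 and 0.07 ± 0.03, and Srsf11 gave 0.01 ± 0.03 and 0.06 ± 0.03, in M3KD and in M14KD in each case. The M3KD values without scramble replicate 2 were 0.09 for Srsf9, 0.02 for Srsf3, 0.07 for Srsf2, 0.03 for Srsf10 and -0.00 for Srsf11. In M14KD they were then 0.05 for Srsf9, Srsf3, Srsf2 and Srsf11 and 0.03 for Srsf10, and none of these genes was called in either knockdown.

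The Tra2 proteins are SR-like activators that bind GAA-rich exons. Tra2a had 242, 250.3, 247 and 243 CPM in M3KD libraries, 256, 257, 255 and 259.6 CPM in M14KD libraries, and 243, 204 and 232 CPM in scramble libraries. M14KD libraries were above every scramble library, while M3KD replicate 1 lay just below scramble replicate 1. On the log2 scale this was a difference of 0.12 ± 0.04 in M3KD (edgeR adjusted p = 0.0365) and 0.18 ± 0.04 in M14KD (edgeR adjusted p = 0.00371). The M14KD call held without any single library, at 0.12 without scramble replicate 2; the M3KD call ended without scramble replicate 2, where the value was 0.05, any of the 4 M3KD replicates, or M14KD replicate 3.

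Tra2b, known from the splicing of SMN2 exons in human cells, had 170.4, 176, 171 and 173 CPM in M3KD libraries, 173, 175, 160.0 and 169 CPM in M14KD libraries, and 163, 149 and 162 CPM in scramble libraries. M3KD libraries lay above all scramble libraries, and M14KD replicate 3 fell within them. In log2 terms the change was 0.13 ± 0.04 in M3KD (edgeR adjusted p = 0.0119), passing without any single library, and 0.10 ± 0.04 in M14KD (edgeR adjusted p = 0.0595). Its values without scramble replicate 2 were 0.09 and 0.06.

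**Figure D4:**
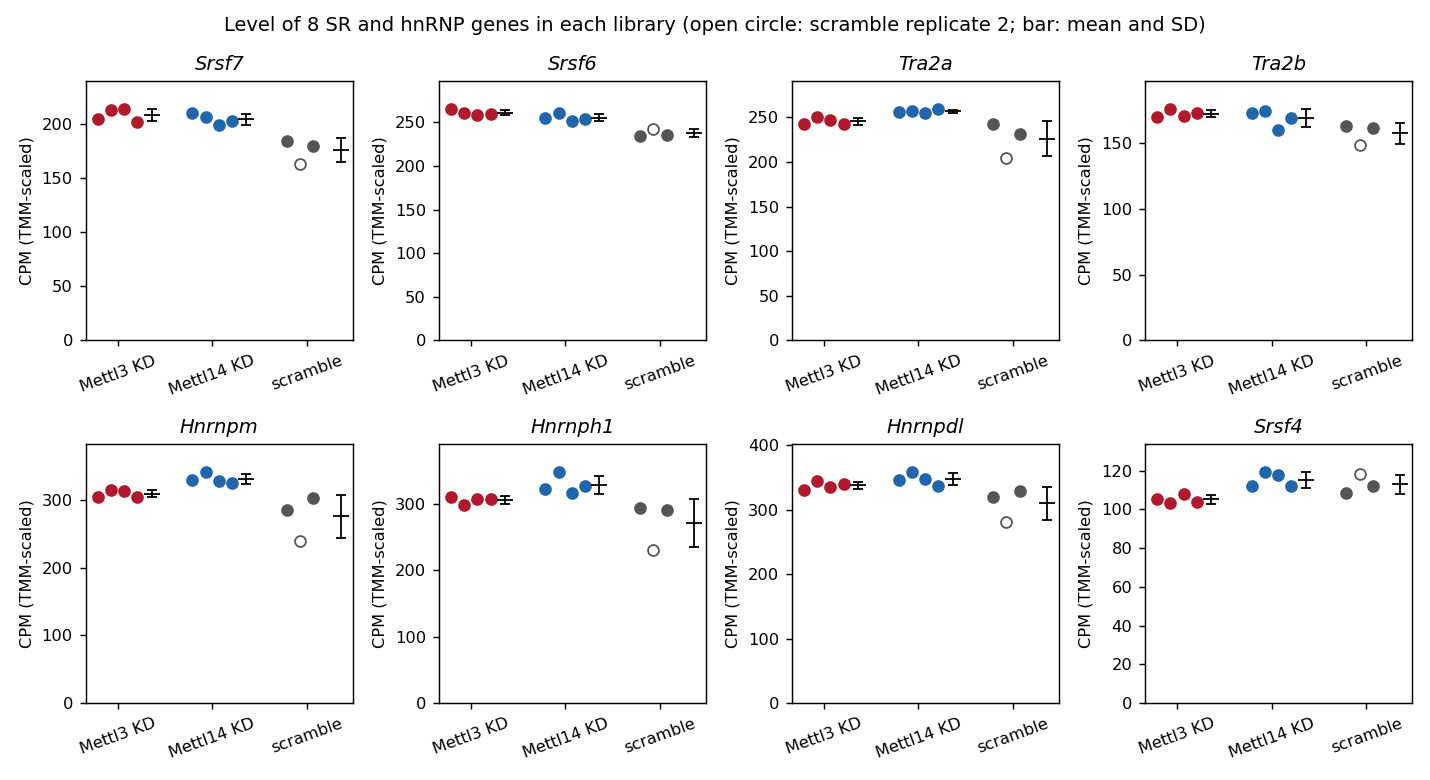
Level in CPM (vertical axis, from 0) of 8 SR and hnRNP genes in each library of the M3KD, M14KD and scramble groups; each point is a library, the open circle is scramble replicate 2, and the bars beside the points are mean and SD. Srsf7 libraries lie between 199 and 214 CPM in the knockdowns and between 163 and 184 CPM in scramble, while for Hnrnph1 the open circle is at 230.1 CPM.

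In the hnRNP A/B and D class, abundant proteins that often oppose exon inclusion, Hnrnpdl was called in both knockdowns. It had 331, 344, 335 and 341 CPM in M3KD libraries, 346, 359, 348 and 337 CPM in M14KD libraries, and 320.4, 281 and 329 CPM in scramble libraries. Both knockdowns lay above all scramble libraries. That gave a log2 fold change of 0.12 ± 0.04 in M3KD (edgeR adjusted p = 0.031) and 0.16 ± 0.04 in M14KD (edgeR adjusted p = 0.00847). The M14KD call held without any single library, at 0.10 (without scramble replicate 2) to 0.22; the M3KD call ended without scramble replicate 2, where it was 0.06, or M3KD replicate 2, 3 or 4.

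Hnrnpa1, the best known splicing silencer, did not pass by edgeR, and its log2 fold changes moved with 1 library. It had 675, 679.7, 668 and 666 CPM in M3KD libraries, 607, 725, 682 and 683 CPM in M14KD libraries, and 627, 417 and 626 CPM in scramble libraries. With all libraries the log2 fold change was 0.27 ± 0.13 in M3KD and 0.28 ± 0.13 in M14KD, and without scramble replicate 2 it was 0.10 ± 0.06 and 0.11 ± 0.06, with no edgeR call either way. By limma-voom with all libraries it was called higher in M3KD. Hnrnpab, an RNA- and DNA-binding hnRNP, Hnrnpd, which binds AU-rich elements and promotes decay of many mRNAs, and Hnrnpa3 were not called by edgeR with all libraries and the filter on low counts, at 0.07 ± 0.04, 0.08 ± 0.10 and -0.03 ± 0.04 in M3KD and 0.11 ± 0.04, 0.14 ± 0.10 and 0.06 ± 0.04 in M14KD. With no filter Hnrnpab was called higher in M14KD. It was also called higher there without scramble replicate 1 or 3, and Hnrnpd without scramble replicate 1. Hnrnpab gave 0.01 in M3KD and 0.04 in M14KD without scramble replicate 2, and Hnrnpd -0.04 and 0.01. Hnrnpa3 was then called lower in M3KD, at -0.08 ± 0.03 (edgeR adjusted p = 0.0211), and gave 0.01 in M14KD. Hnrnpa0 gave -0.08 ± 0.04 in M3KD and -0.10 ± 0.04 in M14KD, not passing, and without scramble replicate 2 it was called lower in both, at -0.11 ± 0.04 (edgeR adjusted p = 0.0249) and -0.13 ± 0.04 (edgeR adjusted p = 0.0109).

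The hnRNP F/H proteins bind runs of G. Hnrnph1 had 311, 298, 308 and 307 CPM in M3KD libraries, 322, 349, 316 and 326 CPM in M14KD libraries, and 293, 230.1 and 290.2 CPM in scramble libraries. Both knockdowns lay above all scramble libraries, M14KD furthest. The log2 fold change was 0.17 ± 0.07 in M3KD (edgeR adjusted p = 0.102) and 0.28 ± 0.07 in M14KD (edgeR adjusted p = 0.0233). In M3KD Hnrnph1 was called higher by DESeq2 (DESeq2 adjusted p = 0.0251) and by limma-voom. By edgeR it was called higher there with no filter on low counts and without scramble replicate 1. The M14KD call ended without M14KD replicate 2, the highest library, and without scramble replicate 2 the values were 0.07 ± 0.03 in M3KD and 0.17 ± 0.03 in M14KD.

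Hnrnph3 had 63.5, 63.7, 62.9 and 61.7 CPM in M3KD libraries, 68.9, 76.9, 70.2 and 71.4 CPM in M14KD libraries, and 67.2, 41.3 and 68.2 CPM in scramble libraries. M3KD libraries lay below all M14KD libraries and below the other two scramble libraries, but above scramble replicate 2. Its log2 fold change in M3KD was 0.09 ± 0.15 with all libraries and turned to -0.11 ± 0.04 without scramble replicate 2 (edgeR adjusted p = 0.04998), and in M14KD it was 0.28 ± 0.15, then 0.08 ± 0.04. Hnrnph2 and Hnrnpf were not called with all libraries, at 0.17 ± 0.12 and 0.06 ± 0.04 in M3KD and 0.11 ± 0.12 and 0.09 ± 0.04 in M14KD. With scramble replicate 2 left out Hnrnph2 gave 0.01 ± 0.03 in M3KD and turned to -0.06 ± 0.03 in M14KD, and Hnrnpf gave -0.00 ± 0.03 and 0.03 ± 0.03, none of them called. Without scramble replicate 3 Hnrnpf was called higher in both knockdowns.

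Hnrnpm, which regulates exon skipping in the epithelial to mesenchymal transition, had 304, 315, 314 and 306 CPM in M3KD libraries, 331, 343, 328 and 325 CPM in M14KD libraries, and 285, 240.3 and 303 CPM in scramble libraries. The 3 groups did not overlap, with M14KD highest. Its log2 fold change was 0.16 ± 0.06 in M3KD (edgeR adjusted p = 0.0461) and 0.26 ± 0.06 in M14KD (edgeR adjusted p = 0.00611). The M14KD call held without any single library, at 0.17 (without scramble replicate 2) to 0.34, whereas the M3KD call survived only the removal of scramble replicate 3 and was 0.07 without scramble replicate 2. Hnrnpr, its class partner here, gave 0.12 ± 0.09 in M3KD and 0.15 ± 0.09 in M14KD and was not called; without scramble replicate 2 it gave -0.01 ± 0.03 and 0.02 ± 0.03.

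Hnrnpu, a nuclear matrix protein that binds chromatin and RNA, had 1015, 1027, 1016 and 1033 CPM in M3KD libraries, 1035, 1053, 1072 and 1034 CPM in M14KD libraries, and 988, 891 and 1004 CPM in scramble libraries. All knockdown libraries lay above all scramble libraries. In log2 terms the change was 0.09 ± 0.04 in M3KD (edgeR adjusted p = 0.0631) and 0.13 ± 0.04 in M14KD (edgeR adjusted p = 0.0162), a call that ended without M14KD replicate 3. Leaving out scramble replicate 2 gave 0.04 ± 0.03 in M3KD and 0.07 ± 0.03 in M14KD (edgeR adjusted p = 0.0415). Of its relatives Hnrnpul1 gave -0.02 ± 0.03 in both knockdowns, and -0.04 ± 0.03 in both without scramble replicate 2. Hnrnpul2 gave 0.02 ± 0.10 in M3KD with all libraries and -0.12 ± 0.03 without scramble replicate 2 (edgeR adjusted p = 0.00583), and in M14KD it was 0.11 ± 0.10 with all libraries and -0.03 ± 0.03 without it.

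The poly(C)-binding class, Hnrnpk, Pcbp1 and Pcbp2, which bind C-rich RNA and regulate splicing, stability and translation, had no edgeR call with all libraries; with no filter on low counts Pcbp1 was called lower in M14KD. Hnrnpk gave 0.01 ± 0.03 in M3KD and 0.04 ± 0.03 in M14KD, and without scramble replicate 2 it gave -0.03 and 0.00. Pcbp1 gave -0.02 ± 0.06 in M3KD and -0.12 ± 0.06 in M14KD, and without scramble replicate 2, the library where it was highest, it gave 0.07 ± 0.03 and -0.03 ± 0.03. Pcbp2 had 529, 524, 523 and 519 CPM in M3KD libraries, 539.8, 536, 551 and 537 CPM in M14KD libraries, and 546, 529.7 and 569 CPM in scramble libraries. M3KD lay below all libraries of both other groups, with scramble replicate 2 the closest. Its log2 fold change in M3KD was -0.07 ± 0.03 (edgeR adjusted p = 0.1), and -0.09 ± 0.03 without scramble replicate 2 (edgeR adjusted p = 0.00947). In M14KD it was -0.02 ± 0.03 with all libraries and -0.05 ± 0.03 without that library.

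The hnRNP L and PTB class binds CA repeats or pyrimidine tracts. Ptbp2 had 36.2, 38.4, 38.4 and 37.5 CPM in M3KD libraries, 39.7, 41.0, 39.5 and 40.1 CPM in M14KD libraries, and 41.5, 41.8 and 39.6 CPM in scramble libraries. M3KD libraries lay below all others, while M14KD and scramble overlapped. That gave a log2 fold change of -0.12 ± 0.04 in M3KD (edgeR adjusted p = 0.0283), a call that ended without scramble replicate 1 or 2 or M3KD replicate 1 or 4, and -0.03 ± 0.04 in M14KD (edgeR adjusted p = 0.627). Those values were -0.11 ± 0.05 and -0.02 ± 0.05 without scramble replicate 2. Ptbp1 gave -0.05 ± 0.04 in M3KD and -0.09 ± 0.04 in M14KD, and Ptbp3, Hnrnpl and Hnrnpll lay between -0.04 and 0.05 in both, none of them called with all libraries. When scramble replicate 2 was left out Ptbp1 gave -0.00 in M3KD and -0.04 in M14KD, Ptbp3 gave 0.03 and -0.02, Hnrnpl gave -0.03 and 0.00, and Hnrnpll gave -0.06 and 0.03, again with no call. Without scramble replicate 1 Ptbp1 was called lower in M14KD.

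Set against each other with all libraries in the fit, the log2 fold changes of the 35 members lay between -0.19 and 0.10 (M3KD over M14KD), with a median of -0.03. Of these Srsf4 alone passed, lower in M3KD than in M14KD with a log2 fold change of -0.13 ± 0.03 (edgeR adjusted p = 0.0192), so 0 members were higher (4 had an unadjusted p under 0.05 in either direction, and DESeq2 also gave 0 higher and 1 lower, with 3.4% and 4.29% of all genes). The test called 3.66% of all genes higher and 4.44% lower in this comparison. The Srsf4 call ended without M3KD replicate 2 or 4 or M14KD replicate 2 or 3, at -0.15 to -0.11. In 10 members every M3KD library lay below every M14KD library (28.6% of 35, where 9.22% of all genes did so), among them Hnrnph1, Hnrnph3, Hnrnpm, Hnrnpu and Tra2a. In 0 members did every M3KD library lie above every M14KD library, against 8.43% of all genes.

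Scramble libraries enter this comparison through the shared estimate of spread, the filter and the scaling, and leaving out scramble replicate 2 raised the number of members called to 1 higher and 7 lower, where 7.22% of all genes were called higher and 7.62% lower. The log2 fold changes themselves hardly moved. Lower in M3KD were then Srsf4 at -0.13 ± 0.03 (edgeR adjusted p = 0.00122), Hnrnph3 at -0.19 ± 0.03 (edgeR adjusted p = 8.72e-05), Hnrnph1 at -0.10 ± 0.03 (edgeR adjusted p = 0.0058), Hnrnpm at -0.10 ± 0.03 (edgeR adjusted p = 0.00555), Hnrnpa3 at -0.10 ± 0.02 (edgeR adjusted p = 0.00243), Hnrnpul2 at -0.09 ± 0.03 (edgeR adjusted p = 0.0209) and Hnrnpll at -0.09 ± 0.03 (edgeR adjusted p = 0.0338). Pcbp1 was higher in M3KD, at 0.10 ± 0.03 (edgeR adjusted p = 0.00661).

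Non-overlap against scramble was counted as well. Every M3KD library lay above every scramble library for 9 members and below for 3, where 17.6% of all genes lay above and 17.9% below. Every M14KD library lay above every scramble library for 11 members and below for 0, where the shares of all genes were 14.4% and 14.5%. Without scramble replicate 2 the numbers were 11 above and 8 below for M3KD (22.7% and 23.4% of all genes) and 11 above and 1 below for M14KD (19.5% and 19.4%).

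Summed over SR and Tra2 genes, levels were 2852, 2869, 2847 and 2801 CPM in M3KD libraries, 2898, 2900.1, 2817 and 2848 CPM in M14KD libraries, and 2755, 2479 and 2649 CPM in scramble libraries. Every knockdown library lay above every scramble library. Over the hnRNP, PTB and PCBP genes the sums were 9242, 9408, 9341 and 9392 CPM in M3KD libraries, 9435, 9732, 9558 and 9448 CPM in M14KD libraries, and 9378, 8395 and 9379.8 CPM in scramble libraries. There M3KD overlapped scramble, and M14KD lay above it. Scramble replicate 2 was lowest in both sums.

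**Figure D5:**
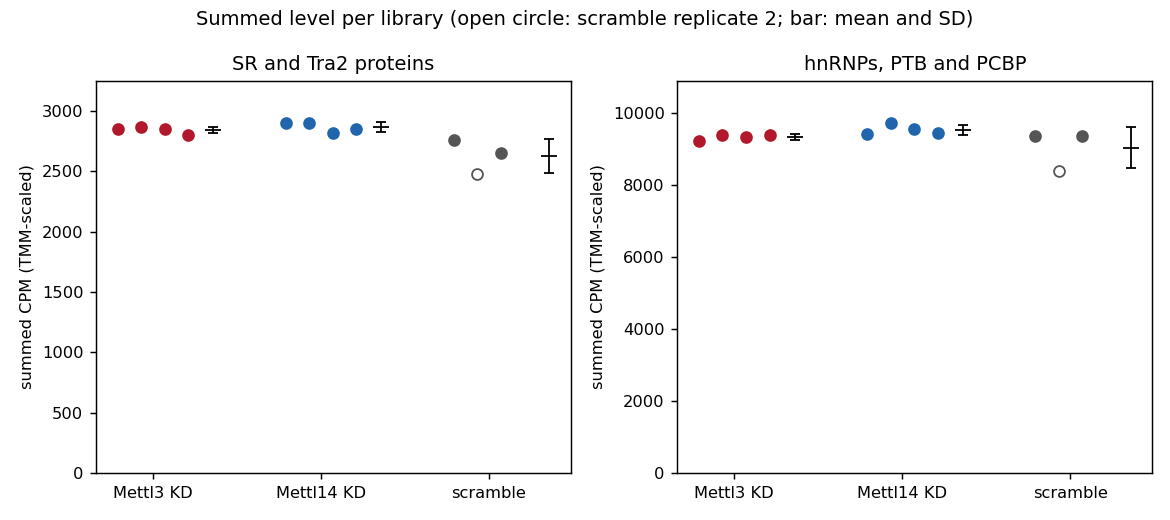
Summed level in CPM (vertical axes, from 0) of the SR and Tra2 genes (left) and of the hnRNP, PTB and PCBP genes (right) in each library of the M3KD, M14KD and scramble groups; the open circle is scramble replicate 2 and the bars are mean and SD. On the left the knockdown libraries lie between 2801 and 2900.1 CPM and the scramble libraries between 2479 and 2755 CPM; on the right the filled scramble points fall within the M3KD range.

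Phosphorylation of the serine and arginine tail governs the nuclear import and the activity of many SR proteins. Their kinases, phosphatases and import receptor, and also Ppig, were therefore followed as a list of 14 genes. Of these 13 were tested (Srpk3 was kept out). In M3KD 2 were higher (Prpf4b and Srpk1) and 1 lower (Clk3), with a median log2 fold change of 0.03, where edgeR called 15.5% of all genes higher and 15.8% lower. In M14KD 2 were higher (Prpf4b and Tnpo3) and 1 lower (Clk3), with a median of 0.05, against 10.1% and 10.8% of all genes, so these counts lie near the background. The higher count was 1 in M3KD without scramble replicate 2 or 3 or M3KD replicate 2, 3 or 4. In M14KD it was 0 or 1 without scramble replicate 2 or any M14KD replicate. The medians without scramble replicate 2 were -0.00 in M3KD and 0.02 in M14KD. Clk3, a nuclear kinase of the SR tail, had 43.5, 41.9, 45.5 and 47.5 CPM in M3KD libraries, 49.8, 44.5, 47.6 and 46.3 CPM in M14KD libraries, and 59.1, 56.3 and 62.6 CPM in scramble libraries. No knockdown library reached a scramble library. On the log2 scale this was a difference of -0.41 ± 0.05 in M3KD (edgeR adjusted p = 2.29e-06) and -0.34 ± 0.05 in M14KD (edgeR adjusted p = 4.86e-05), both held without any single library, and both were larger in size than that of any called SR or hnRNP gene.

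Srpk1, the cytoplasmic kinase that prepares SR proteins for import, averaged 122 ± 2.81 CPM in M3KD, 113 ± 1.56 CPM in M14KD and 106 ± 5.64 CPM in scramble. It rose in M3KD, by 0.20 ± 0.04 on the log2 scale (edgeR adjusted p = 0.000252), without any single library deciding the call, and did not pass in M14KD, at 0.09 ± 0.04 (edgeR adjusted p = 0.0978). In M3KD against M14KD it was also called higher, as the list's 1 higher member, beside 2 lower (Dyrk1a and Srpk2), where 3.66% of all genes were called higher and 4.44% lower. The Srpk1 call ended without any 1 of the 8 knockdown libraries, and the lower count was 1 by DESeq2 or without any of those libraries but M3KD replicate 2. Prpf4b gave 0.11 ± 0.04 in M14KD (edgeR adjusted p = 0.0329), a call that ended without scramble replicate 2 or 3 or M14KD replicate 2 or 3.

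SR proteins and hnRNPs steer the U1 and U2 particles to splice sites, and all 29 listed U1, U2 and U2AF genes were tested. In M3KD 7 were higher and 0 lower by edgeR, with a median log2 fold change of 0.10, 14 members under an unadjusted p of 0.05 in either direction, and 10 higher and 0 lower by DESeq2. All-gene shares were 15.5% higher and 15.8% lower by edgeR, and 15.1% and 14.3% by DESeq2. In M14KD 4 were higher and 0 lower by edgeR, with a median of 0.10, and 12 were under an unadjusted p of 0.05 in either direction. DESeq2 gave 3 higher and 0 lower there. In M14KD the shares of all genes were 10.1% higher and 10.8% lower by edgeR, and 10% and 10.2% by DESeq2. The number higher in M14KD therefore lies near the background. The share of all genes under an unadjusted p of 0.05 was not counted. Sf3b5, a small subunit of the SF3b complex, averaged 74.6 ± 3.48 CPM in M3KD and 65.3 ± 1.72 CPM in scramble, at 0.19 ± 0.04 (edgeR adjusted p = 0.00125). U2af1l4, a paralogue of the small U2AF subunit, averaged 23.9 ± 0.459 CPM in M3KD and 20.2 ± 1.6 CPM in scramble, at 0.24 ± 0.06 (edgeR adjusted p = 0.00245). Both calls held without any single library. In M14KD Sf3b3 gave 0.11 ± 0.03 (edgeR adjusted p = 0.0212) and Snrpe, a core Sm protein, gave 0.18 ± 0.05 (edgeR adjusted p = 0.0218). The Sf3b3 call ended without scramble replicate 2 or M14KD replicate 3, and the Snrpe call without scramble replicate 2 or M14KD replicate 1, 2 or 4. Without scramble replicate 2 the list gave 7 higher in M3KD and 1 higher in M14KD, with medians of 0.04 and 0.05. The higher counts were 12 and 10 without scramble replicate 1. In M14KD the count was 2 without M14KD replicate 2 and 1 without M14KD replicate 4.

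Transcripts with a poison exon are removed by nonsense-mediated decay, for which 16 factors were tested. In M3KD 5 were higher (Eif4a3, Pnrc2, Smg8, Upf2 and Upf3a), with a median log2 fold change of 0.13, where 15.5% of all genes were called higher; the count was 6 without scramble replicate 2 and 8 without scramble replicate 1. In M14KD 1 was higher, Smg8, with a median of 0.08, where 10.1% of all genes were called higher; the count was 0 without scramble replicate 2 or M14KD replicate 4, 4 without scramble replicate 1 and 3 without scramble replicate 3. The medians without scramble replicate 2 were 0.07 in M3KD and 0.04 in M14KD. No factor was lower in either knockdown (0 by edgeR and by DESeq2). The shares of all genes called lower were 15.8% in M3KD and 10.8% in M14KD by edgeR, and 14.3% and 10.2% by DESeq2. An unadjusted p under 0.05 in either direction was reached by 8 factors in each knockdown by edgeR, and by 8 in M3KD and 5 in M14KD by DESeq2. The share of all genes that reached it was not counted, so these numbers have no background. Eif4a3, the helicase core of the exon junction complex, averaged 172 ± 1.99 CPM in M3KD and 153 ± 5.78 CPM in scramble, at 0.17 ± 0.03 (edgeR adjusted p = 0.000367). Smg8, a regulator of the kinase Smg1, averaged 13.2 ± 0.758 CPM in M3KD, 12.5 ± 0.897 CPM in M14KD and 10.4 ± 0.633 CPM in scramble. Its log2 fold change was 0.34 ± 0.08 in M3KD (edgeR adjusted p = 0.00173) and 0.26 ± 0.08 in M14KD (edgeR adjusted p = 0.0181), the second ending without scramble replicate 2 or M14KD replicate 4. Upf3a, a decay factor next to the exon junction complex, gave 0.17 ± 0.06 in M14KD (edgeR adjusted p = 0.0562).

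Of 41 other splicing regulators 38 were tested, with Esrp1 and Esrp2 below the filter and Qki not analysed here. By edgeR, 5 rose and 4 fell in M3KD (median log2 fold change 0.04), where 15.5% of all genes rose and 15.8% fell. In M14KD 8 rose and 2 fell (median 0.06), where the shares of all genes were 10.1% and 10.8%. The higher count in M3KD was 9 without scramble replicate 1. In M14KD it was 4 or 5 without scramble replicate 2 or M14KD replicate 2 or 4. The medians without scramble replicate 2 were 0.02 in M3KD and 0.05 in M14KD. Nova2, a regulator best known from neurons, had 18.3, 17.2, 19.1 and 17.7 CPM in M3KD libraries, 17.5, 17.6, 17.997 and 19.0 CPM in M14KD libraries, and 23.4, 22.7 and 24.3 CPM in scramble libraries. The knockdowns lay wholly below scramble. It fell by 0.38 on the log2 scale in both, with SE 0.06 each (edgeR adjusted p = 2.83e-05 in M3KD and 4.57e-05 in M14KD). Mbnl1, a muscleblind regulator, averaged 85.5 ± 3.5 CPM in M3KD and 72.6 ± 3.61 CPM in scramble, at 0.24 ± 0.04 (edgeR adjusted p = 0.000172), and Rbm17, a 3' splice site factor, averaged 126 ± 7.88 CPM in M14KD and 106 ± 5.12 CPM in scramble, at 0.25 ± 0.04 (edgeR adjusted p = 0.00041). The calls of these 3 genes held without any single library.

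Annotated isoforms are a property that the choice by symbol did not use. GENCODE M21 gives a transcript of the nonsense-mediated decay class for 23 of the 36 genes (63.9%), 11 of the 13 SR and Tra2 genes and 12 of the 23 hnRNP, PTB and PCBP genes, against 28.9% of 12210 protein-coding genes tested. A transcript with a retained intron is annotated for 26 (72.2%), against 58.8%. The members also have more annotated transcripts, with a median of 7.5 per gene against 5 for the genes tested. The part of that number in these shares was not tested. Of the genes called in both knockdowns, Srsf7 has 1 annotated decay-class transcript of 8, Srsf6 1 of 4, Tra2a 1 of 5, Srsf1 and Hnrnpdl 2 of 7 each and Hnrnpm 0 of 15. The deposited values are sums per gene, so a change in the share of poison-exon isoforms was not analysed here.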

How the data were processed

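Messenger RNA was sequenced from 4 M3KD, 4 M14KD and 3 scramble libraries of aTC1-6 cells, grouped and numbered as their titles state. The authors deposited estimated counts per gene keyed by Ensembl identifier, made with kallisto per the submitters' processing notes; no version, build or annotation is given in the sources used here, nor how transcripts were added up to genes. Of the values 11.5% were not whole within 1e-06, and all were rounded before testing. Symbols matched 48651 of 53947 rows. Low genes were removed with filterByExpr (edgeR, at least 10 counts). CPM used TMM-scaled library sizes.

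All 11 libraries entered 1 quasi-likelihood fit in edgeR 4.0.16 (R 4.3.3, robust dispersions, no covariate), with Benjamini-Hochberg adjustment over 14133 genes and a threshold of 0.05. A gene is called when its adjusted p is under that threshold. SE was approximated as the size of the log2 fold change over the root of F. A ± gives the SD over libraries for CPM (n = 4, 4 and 3) and the SE for fold changes. The common biological coefficient of variation was 4.38%. Chi-square per degree of freedom between replicates was 2.02 to 14.0, so no pair agreed within sampling noise.

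Alternatives were DESeq2 1.42.0, limma-voom (limma 3.58.1), other scalings and filters, fits of the 2 groups alone, a replicate block and each library left out. The scripts were tested on simulated data with known changes.

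The genes described and the lists were chosen with earlier results of these data known. Named with every library's value were members called in any comparison without overlap between groups; Srsf5, Hnrnpa1, Hnrnph3 and Pcbp2 were added after their values were seen. From each list the 2 genes with the smallest adjusted p in each comparison with scramble were named. Coding sequence and isoform classes came from GENCODE M21 and promoters from RefSeq.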

Additional observations from a re-analysis of the deposited data

Results flagged for a closer look

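Hnrnph2 had 142 CPM in M3KD replicate 2, while the other M3KD libraries had 137 to 138 CPM. The gap to the nearest library was 0.905 of the group's range, above Dixon's 95% critical value for 4 samples. Of 70 groups of 4 libraries checked 1 was singled out in this way, fewer than the about 1 in 20 that chance gives.

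The change of Srsf4 differed between the knockdowns by the direct test of M3KD against M14KD, at -0.13 ± 0.03 on the log2 scale (edgeR adjusted p = 0.0192). Its level was lower in 4 of 4 M3KD libraries than in any M14KD library.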

How the results depend on the processing

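Among the alternatives, RLE scaling, limma-voom and a mean of at least 50 counts gave member counts within 1.5 times those reported. The share of all genes called was counted only in the main fit, by DESeq2 and without scramble replicate 2. The other counts here have no background to be read against. Members lower in M3KD than in scramble were 2, but 1 with no scaling beyond library totals and 0 with no filter on low counts, DESeq2, only the 2 groups compared or the replicate block. Members lower in M14KD than in scramble were 0, but 1 with no scaling beyond library totals or no filter. With only the 2 groups compared, members higher were 3 in M3KD and 4 in M14KD, 1 was higher in both, and M3KD against M14KD gave 1 higher and 7 lower. With the replicate block, members higher were 4 in M3KD, 7 in M14KD and 2 in both. Libraries with the same number did not deviate together (correlations of -0.118 to 0.0674 over 10 pairs, against -0.100 to 0.137 over 30 pairs with different numbers), so the numbers mark no known pairing. Leaving out each library gave 3 to 11 higher and 0 to 5 lower in M3KD, 6 to 13 higher and 0 to 1 lower in M14KD, 0 to 1 higher and 0 to 7 lower in M3KD against M14KD, and 2 to 10 higher and 0 to 1 lower in both knockdowns. With no scaling beyond library totals, Hnrnpa1, Hnrnpul1 and Srsf10 turned to 0.0072, 0.0061 and 0.0080 in M3KD against M14KD, none called, and Hnrnpl turned to -0.0071 in M14KD, and to -0.0017 with a mean of at least 50 counts. The cause of these changes was not tested. With single libraries left out, 18 log2 fold changes of genes changed sign. In M3KD against scramble they ranged over -0.041 to 0.20 for Hnrnpd, -0.00040 to 0.12 for Hnrnpf, -0.11 to 0.21 for Hnrnph3, -0.030 to 0.044 for Hnrnpk, -0.0054 to 0.20 for Hnrnpr, -0.12 to 0.12 for Hnrnpul2, -0.068 to 0.069 for Pcbp1 and -0.0034 to 0.029 for Srsf11. In M14KD against scramble they ranged over -0.057 to 0.21 for Hnrnph2, -0.0030 to 0.018 for Hnrnpl, -0.039 to 0.0015 for Hnrnpul1, -0.028 to 0.21 for Hnrnpul2 and -0.045 to 0.014 for Pcbp2. In M3KD against M14KD they ranged over -0.0084 to 0.040 for Hnrnpa0, -0.051 to 0.033 for Hnrnpa1, -0.014 to 0.012 for Hnrnpul1, -0.0094 to 0.0036 for Srsf10 and -0.067 to 0.0045 for Srsf5. Of these, Hnrnph3 and Hnrnpul2 in M3KD were called when reversed, both without scramble replicate 2. Srsf12, at 3 to 12 counts a library, was too shallow to test.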
